A study of Mus musculus with 16 samples.

Results

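RNA of 8 genes of the Notch pathway was measured in 16 bulk RNA-seq libraries made from leukaemia-propagating cells (LPC), the cells of a leukaemia that are taken to carry it on. The 8 genes are the receptors Notch1, Notch2 and Notch3 and the direct targets Dtx1, Hes1, Nrarp, Ptcra and Il2ra. They were named by symbol, each matched 1 of the 55414 gene identifiers in the table, and all 8 were among the 18878 identifiers that averaged 10 counts or more per library and were tested. The 8 were chosen by measured values of these same libraries, and which of those values is not given in the sources used here. Levels, fold changes and adjusted p-values of the 8 are therefore a description of these libraries and support nothing on their own.

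All cells came from mice of 1 genotype, labelled miR-128a overexpressing Kmt2a-AFF1+, a model of acute lymphoblastic leukaemia (ALL) of the infant pro-B kind in which a fusion of Kmt2a, a chromatin regulator, is joined by excess of a microRNA. Cells were taken from 2 niches, bone marrow (BM) and central nervous system (CNS), and sorted as LSK (lineage-negative, Sca1-positive, cKit-positive and IL7R-positive) or LK (lineage-negative, Sca1-negative and cKit-positive, titled LK/CLP). LSK and LK cells of BM and of CNS made 4 groups of 4 libraries each, and no group of wild-type cells or of cells without the microRNA was analysed here. Age, sex and the number of mice are not given in the sources used here, nor is it said that replicates came from separate mice, so p-values measure the spread between these libraries, which may be partly technical. The BM and the CNS library of 1 LPC type and number share the stem of a description label, which gives 8 stems (LSK 1 to LSK 4 and LK 1 to LK 4). Stems of 1 number also begin alike across LPC types, so the 8 may not be unrelated.

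Notch receptors are single-pass membrane proteins that are cut when a ligand on a neighbouring cell binds them. The freed intracellular domain enters the nucleus, joins the DNA-binding protein RBPJ and a Mastermind coactivator, and switches on targets such as Hes1, Dtx1 and Nrarp. In blood formation the pathway is known for directing early lymphoid progenitors to the T lineage at the expense of the B lineage, and Notch1 is a frequent oncogene of T-cell leukaemia. Ptcra, which encodes the pre-T-cell receptor alpha chain, and Il2ra, which encodes the interleukin-2 receptor alpha chain CD25, are targets of the pathway in early thymocytes.

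The markers in these libraries went against the pro-B label. Of 14 pro-B markers, 3 had a mean of at least 1 CPM (1 count for every M, or mega, counts of scaled library size), and only Pou2af1, a B-cell coactivator, reached 10 CPM, at 50.7. Pax5 averaged 0.59 CPM and Ebf1 0.67 CPM, both factors that set B-cell identity. Of 18 T lineage markers, 14 reached 1 CPM and 10 reached 10 CPM, among them Thy1 (320 CPM), the T-cell factor Bcl11b (291 CPM), the kinase Lck (222 CPM) and the adaptor Lat (159 CPM). Genes for parts of T-cell receptor complexes were split. Cd3d (0.67 CPM), Cd3g (0.57 CPM) and Trac (0.19 CPM) had means under 1 CPM. Trbc2 (116 CPM), Cd247 (112 CPM), Trbc1 (48.3 CPM) and Tcrg-C1 (34.3 CPM) were among the 10 that reached 10 CPM. The summed T lineage level ran from 1337 to 1724 CPM over the 16 libraries and the summed pro-B level from 39.9 to 79.4 CPM. In bulk libraries, a change in the number of cells of a type and a change in RNA per cell cannot be told apart.

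**Figure D1:**
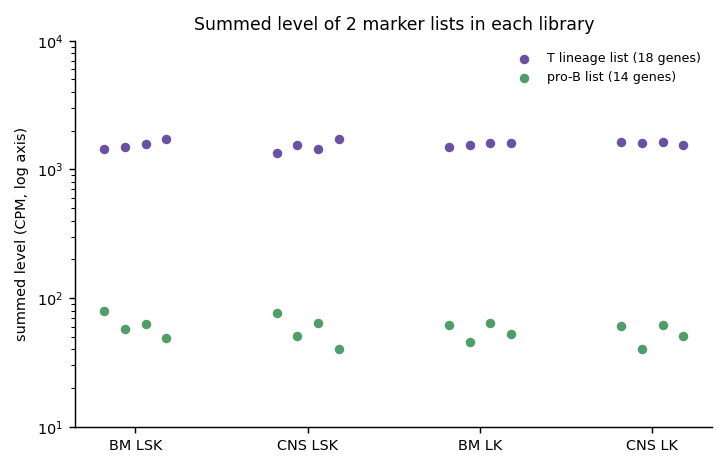
Summed level of the T lineage list (18 genes, purple) and the pro-B list (14 genes, green) in each of the 16 libraries, in CPM on a log axis, with points of a group in replicate order. The T lineage sums (1337 to 1724 CPM) lie above the pro-B sums (39.9 to 79.4 CPM) in every library.

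To show DNA in front of these genes, promoter windows were taken from RefSeq, build GRCm38.p6, from 250 bases before the start of a gene to 50 bases from the start on. Windows were found for 7 of the 8 genes, all but Hes1. The letters TGGGAA, the core that RBPJ is known to bind, were searched on both strands (TTCCCA on the other strand). Only the Ptcra window held them, with 2 matches, both on the strand of the gene, beginning 84 and 32 bases before the start. Of 32851 windows of the same length, 25.6% held at least 1 match and 3.79% at least 2. The 250 bases before the start are printed for Ptcra, because it carries the matches, and for Il2ra, the other thymocyte target among the highest of the 8 levels, whose window holds none. Capitals mark the matches. A match is a string of letters, not a measured binding site. The Ptcra stretch is chr17:46763713-46763962, minus strand, and the Il2ra stretch is chr2:11642542-11642791, plus strand.
Ptcra: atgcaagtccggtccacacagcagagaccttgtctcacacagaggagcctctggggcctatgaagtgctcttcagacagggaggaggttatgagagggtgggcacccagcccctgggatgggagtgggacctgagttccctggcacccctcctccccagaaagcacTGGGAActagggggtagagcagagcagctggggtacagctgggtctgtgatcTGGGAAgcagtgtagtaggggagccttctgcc
Il2ra: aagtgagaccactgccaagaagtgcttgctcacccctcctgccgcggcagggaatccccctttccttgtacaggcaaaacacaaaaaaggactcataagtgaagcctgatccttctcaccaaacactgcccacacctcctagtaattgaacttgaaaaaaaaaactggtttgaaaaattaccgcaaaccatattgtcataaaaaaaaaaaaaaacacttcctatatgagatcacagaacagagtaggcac

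Notch1 RNA was the highest of the receptors, and the targets differed widely. Levels of different genes were compared per length, as CPM per kilobase of exon. Notch1 stood at 98.6 ± 8.15 CPM per kb (SD, n = 16 libraries), above 98.6% of the 13198 tested protein-coding genes, whose median was 2.48 CPM per kb. Il2ra followed at 84.7 ± 23.5 CPM per kb and Ptcra at 70.2 ± 8.29 CPM per kb, above 98.4% and 98.1% of those genes. So 2 of the 5 targets stood close to Notch1 in level per length. Dtx1, which encodes the E3 ubiquitin ligase Deltex-1, stood at 25.1 ± 3.89 CPM per kb. Notch3 had 9.65 ± 1.71 CPM per kb and Notch2 5.75 ± 0.51 CPM per kb, so mean Notch1 was 10.2 times Notch3 and 17.2 times Notch2. The remaining targets were the lowest of the 8. Hes1, a transcriptional repressor, had 3.43 ± 0.69 CPM per kb, and Nrarp, which encodes an ankyrin-repeat protein that limits Notch signalling, had 0.99 ± 0.18 CPM per kb, below the median gene. Mean Ptcra per length was 20.5 times Hes1 and 70.9 times Nrarp.

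In this order, neighbouring genes were not always separated beyond the spread of libraries. The ranges of Notch1 and Il2ra overlapped, with Notch1 higher in 10 of 16 libraries, and so did those of Il2ra and Ptcra, with Il2ra higher in 12. The ranges of Notch3 and Notch2 overlapped although Notch3 was the higher in 16 of 16 libraries. The other 4 neighbouring pairs had ranges that lay apart. Counts of olfactory and vomeronasal receptor genes, which blood cells are not known to use, served as an index of background and ran from 183 to 636 CPM. Scaled by length, that background would make up 2.70% to 13.6% of the Nrarp counts, 0.78% to 3.12% of the Hes1 counts and at most 2.00% of the counts of each of the other 6 genes.

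**Figure D2:**
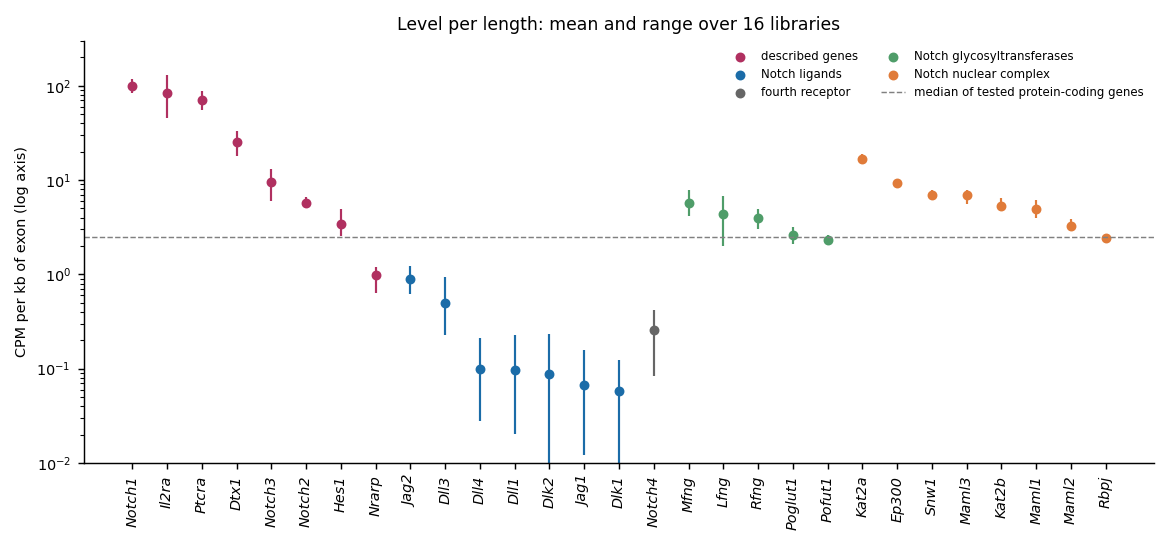
Mean level of the 8 genes and of ligands, Notch4, glycosyltransferases and the nuclear complex in CPM per kb of exon, on a log axis. Points are means over 16 libraries, vertical lines run from the lowest to the highest library and are clipped where they reach the bottom of the axis, and the dashed line is the median of tested protein-coding genes (2.48). Notch1, Il2ra and Ptcra stand highest, at 98.6, 84.7 and 70.2, while the ligands lie below the dashed line.

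Of the receptors, Notch1 gave 1433, 1469, 1508 and 1333 CPM in replicates 1 to 4 of BM LSK, and 1354, 1295, 1391 and 1248 CPM in CNS LSK. In BM LK it gave 1551, 1459, 1392 and 1402 CPM, and in CNS LK 1664, 1394, 1385 and 1182 CPM. The groups overlapped, and CNS LK held both the highest and the lowest library, with a mean of 1406 ± 198 CPM (SD, n = 4).

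Notch3, a receptor that is itself raised by Notch signalling in early T cells, gave 79.5, 90.3, 82.8 and 72.9 CPM in BM LSK, and 72.4, 73.5, 75.3 and 48.4 CPM in CNS LSK. It gave 102, 84.2, 71.6 and 83.3 CPM in BM LK, and 105, 75.1, 70.8 and 61.9 CPM in CNS LK. CNS LSK 4 was low, and both LK libraries numbered 1 were high, as they were for Notch1. Notch2, known in blood for marginal zone B cells, ran from 54.4 to 71.6 CPM over all 16 libraries, with group means between 60.4 and 63.3 CPM.

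Dtx1 gave 114, 136, 145 and 135 CPM in BM LSK, and 96.5, 127, 122 and 129 CPM in CNS LSK. In BM LK it gave 158, 145, 126 and 129 CPM, and in CNS LK 177, 137, 143 and 94.9 CPM. As for Notch1 and Notch3, CNS LK 1 was its highest library, and the lowest was CNS LK 4. The groups overlapped.

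Ptcra, whose chain pairs with a rearranged T-cell receptor beta chain, gave 91.4, 90.4, 84.8 and 95.8 CPM in BM LSK, and 91.4, 84.3, 82.9 and 83.0 CPM in CNS LSK. It gave 91.7, 102, 81.9 and 87.3 CPM in BM LK, and 108, 113, 71.8 and 81.2 CPM in CNS LK. The spread was widest in CNS LK (SD 20.2 CPM) and narrowest in CNS LSK (SD 4.07 CPM). Nrarp was low throughout, from 1.64 to 3.13 CPM, resting on 41 to 86 counts in a library, with overlapping groups whose means ran from 2.20 to 2.80 CPM.

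Il2ra varied more than any of the other 7 genes between stems. It gave 293, 534, 412 and 749 CPM in BM LSK, and 259, 529, 281 and 544 CPM in CNS LSK. In BM LK it gave 480.5, 621, 458 and 664 CPM, and in CNS LK 421, 519, 454 and 518 CPM. Libraries numbered 2 and 4 lay above those numbered 1 and 3 in each of the 4 groups, and groups overlapped. Description labels of 1 number begin alike in LSK and LK, but the labels do not say what that shared part stands for. The SD between stem means, pooled over LSK and LK, was 0.42 on the log2(CPM + 0.5) scale. The SD of the CNS minus BM differences within stems, pooled in the same way, was 0.20, a ratio of 2.07. Over all genes tested the median of that ratio was 0.65. Hes1 had a ratio of 1.24, Notch3 1.09 and Nrarp 0.57.

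**Figure D3:**
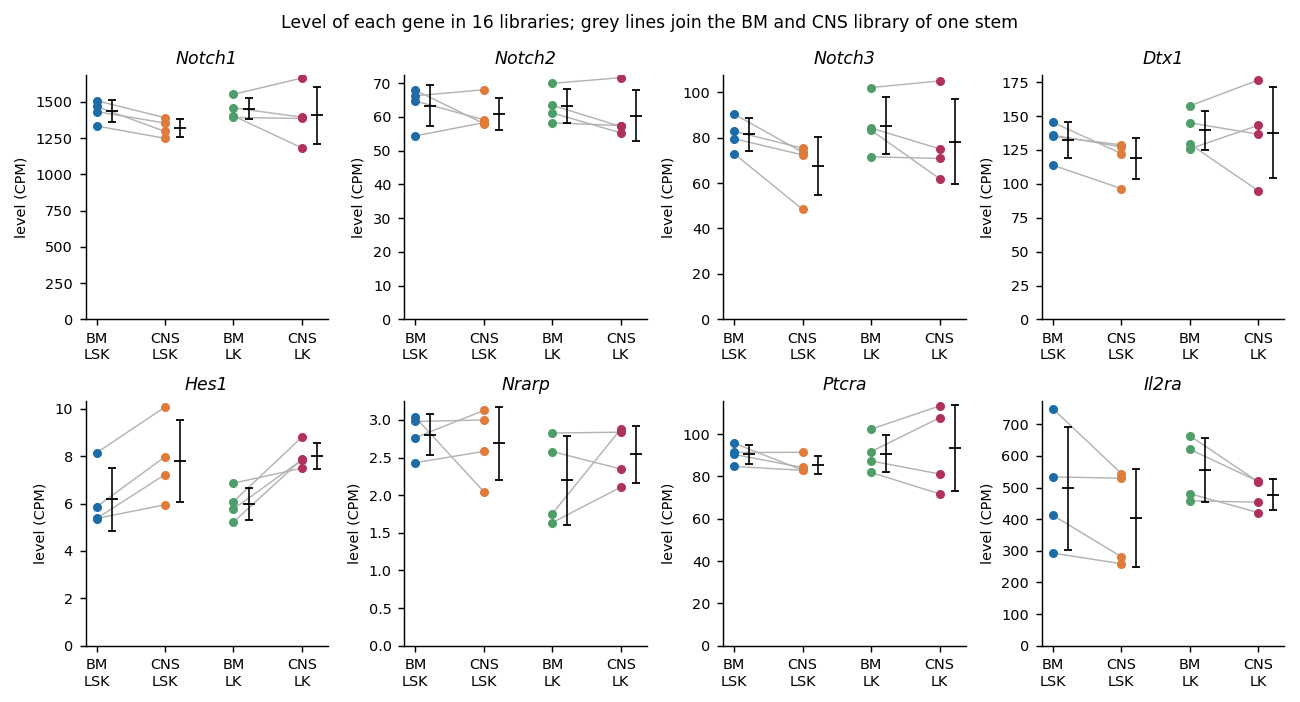
Level of each of the 8 genes in CPM (vertical axes from 0) in the 16 libraries by group, with the group mean and SD (n = 4) beside the points and grey lines joining the BM and CNS library of a stem. Every line of Hes1 goes up and every line of Il2ra goes down from BM to CNS, from 0.12 to 0.55 and from −0.55 to −0.01 on the log2 scale.

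The first comparison was between niches, CNS against BM over both LPC types. No gene passed in the fit without a block, so 0 of the 8 did, against a background of 0% of 18878 genes (1727 had an unadjusted p under 0.05). With the stem as a block, which compares each CNS library with the BM library of its own stem, 126 genes passed (0.667%), or 78 without LK 1 or LK 3 and 79 without LSK 3. Among them were Hes1, higher in CNS, and Il2ra, lower in CNS. Of all genes tested, 0.286% passed as higher and 0.381% as lower. Both calls were close to the threshold, and in no fit with 1 stem left out did both pass.

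Hes1 gave 5.37, 5.37, 8.14 and 5.86 CPM in BM LSK, and 5.95, 7.22, 10.07 and 7.97 CPM in CNS LSK. It gave 5.77, 6.08, 5.22 and 6.86 CPM in BM LK, and 7.84, 8.80, 7.87 and 7.49 CPM in CNS LK, on 101 to 225 counts in a library. The LSK groups overlapped, whereas all 4 CNS LK libraries lay above all 4 BM LK libraries, which 1.37% of genes tested did. It was the only group pair without overlap among the 8 genes in the 4 comparisons of niche within an LPC type and of LPC type within a niche. Of all genes tested, 3.68% had no overlap in either direction between niches within LSK, 2.18% within LK, 3.13% between LPC types in BM and 3.65% in CNS, so the count for the 8 genes is near the share of all genes. Group means were 6.18 ± 1.32 CPM in BM LSK, 7.80 ± 1.73 CPM in CNS LSK, 5.98 ± 0.68 CPM in BM LK and 8.001 ± 0.56 CPM in CNS LK (SD, n = 4). Within stems the CNS library was the higher in 8 of 8, by 0.12 to 0.55 on the log2(CPM + 0.5) scale, as in 1.49% of genes tested. The fitted log2 difference with the block was 0.38 (SE 0.080, edgeR's quasi-likelihood test, adjusted p = 0.0343), and without it 0.38 (adjusted p = 0.359). The call held without LSK 1 (adjusted p = 0.0418) or LK 4 (0.0210) and was lost when any of the other 6 stems was left out, the adjusted p running from 0.0210 to 0.117.

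In 8 of 8 stems Il2ra had less RNA in the CNS than in the BM library, by −0.55 to −0.01 on the log2(CPM + 0.5) scale, as in 1.45% of genes tested. The smallest differences were −0.01 in LSK 2 and −0.01 in LK 3. Its fitted log2 difference with the block was −0.25 (SE 0.055, edgeR, adjusted p = 0.0389). Without the block it was −0.26 (adjusted p = 0.708). The call held without LSK 2 (adjusted p = 0.0148) or LK 3 (0.0427) and was lost without any of the other 6 stems, the adjusted p running from 0.0148 to 0.160.

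In 7 of 8 stems the CNS library had more background by this index. With that index as a covariate beside the block, Hes1 stood at 0.47 (edgeR, adjusted p = 0.197) and Il2ra at −0.16 (adjusted p = 0.861), and 19 genes passed in all. Myeloid, microglial and neural markers were more often higher than lower in CNS, and this was not particular to them. Counted by stems, 10 of 14 pro-B markers were mostly higher and 2 mostly lower. The same counts were 11 and 4 of 18 T lineage markers, 6 and 0 of 7 Notch ligands, and 2 and 7 of 11 Notch corepressors. With the block, the median was 0.59 over the 8 tested pro-B markers and −0.0051 over the 17 tested T lineage markers. Of 12 myeloid markers, 11 were higher in CNS in more stems than they were lower, as were 7 of 9 brain macrophage and microglia markers and 9 of 12 neural, glial and meningeal markers. Among those tested with the block, 6 of 6 myeloid (median log2 difference 0.51), 4 of 5 microglial (0.16) and 4 of 5 neural markers (0.14) were higher in CNS and 0 passed in edgeR's quasi-likelihood test, where the median over all genes tested was −0.0015. Csf3r and Col1a1 were higher in CNS at an unadjusted p under 0.05. S100a8, a granulocyte protein, was at 0 counts in 7 of the 8 BM libraries and 2 of the 8 CNS libraries, with group means of 0 CPM in BM LSK, 0.105 CPM in CNS LSK, 0.010 CPM in BM LK and 0.082 CPM in CNS LK. Tmem119, a microglial surface protein, averaged 0.020 CPM in BM LSK, 0.236 CPM in CNS LSK, 0.112 CPM in BM LK and 0.264 CPM in CNS LK, and was the higher in CNS in 7 of 8 stems. P2ry12, a microglial receptor, averaged 0.298, 0.214, 0.145 and 0.203 CPM in the same order and was the higher in CNS in 5 of 8 stems. The summed levels overlapped between the niches and their most abundant genes were Fcgr3 (10.6 CPM on average) in the myeloid, Gpr34 (4.23 CPM) in the microglial and Mbp (36.2 CPM) in the neural list. Myeloid sums ran from 2.98 to 34.6 CPM in BM and from 7.10 to 35.7 CPM in CNS, microglial sums from 7.31 to 17.5 and from 7.38 to 15.7 CPM, and neural sums from 33.6 to 46.6 and from 35.9 to 60.8 CPM. Their part in the differences was not tested. Of the regulatory and activated T-cell list (7 genes, 21.3 to 58.9 CPM summed), which marks mature cells that carry CD25, 1 gene passed with the block, Ctla4, at a mean of 0.71 CPM and higher in CNS, while Foxp3 averaged 0.76 CPM. Most of that sum was Ikzf2 (24.6 CPM on average), and the next highest gene was Il2rb (4.66 CPM). Of the endothelial and mural list (98.1 to 135 CPM), Pdgfrb passed as lower in CNS. Erythroid markers summed to 2.51 to 4.47 CPM.

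The receptors did not pass in either fit. Notch3 came closest, lower in CNS in 7 of 8 stems, with a log2 difference of −0.21 (SE 0.056, edgeR with the block, adjusted p = 0.0968). Notch1 was lower in 7 of 8 stems, at −0.09 with the block (adjusted p = 0.40). The stem in which it was higher was LK 1, as for Notch3. Notch2 stood at −0.06 (adjusted p = 0.571) and was lower in 5 stems. Of the other targets, Dtx1 was lower in 6 of 8 stems (−0.10, adjusted p = 0.442), Ptcra lower in 5 (−0.03, adjusted p = 0.832) and Nrarp higher in 6 (0.08, adjusted p = 0.861). The median of the 3 receptors was −0.09 and that of the 5 targets −0.03, beside −0.0015 over all genes tested.

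**Figure D4:**
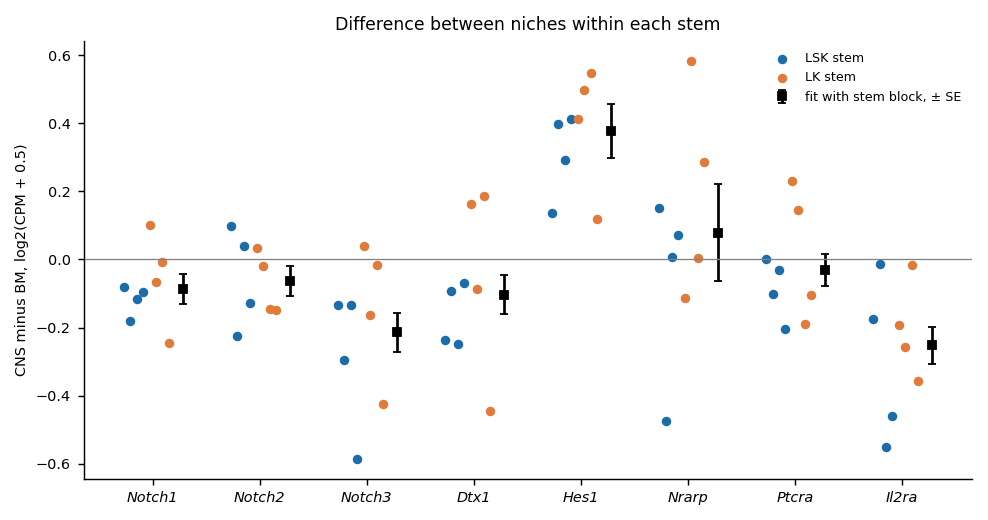
CNS minus BM difference in log2(CPM + 0.5) within each of the 8 stems, for the 8 genes, with LSK stems in blue and LK stems in orange. Black squares are the edgeR estimates with the stem block, with SE. All 8 points of Hes1 lie above 0 and all 8 of Il2ra below it, while the points of the other genes lie on both sides.

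The next comparison was between LPC types, LSK against LK over both niches. In the fit without a block 45 genes passed (0.238%), 43 of them higher in LSK, and 0 of the 8 were among them. Nrarp stood at 0.22 (adjusted p = 0.586), Il2ra at −0.20 (adjusted p = 0.681), Dtx1 at −0.14 (adjusted p = 0.590) and Notch3 at −0.14 (adjusted p = 0.636). Ptcra (−0.07), Notch1 (−0.05), Notch2 (0.01) and Hes1 (0.00) lay closer to 0, with adjusted p from 0.780 to 0.992. With the title number as a block 162 genes passed (0.858%) and again 0 of the 8, with Il2ra at −0.27 (SE 0.094, adjusted p = 0.201). The 16 libraries share 8 stems, yet these fits took paired libraries from the 2 niches as separate replicates. Their p-values may therefore be too small. Once libraries sharing a stem were added together, 0 genes passed between LPC types. The count of 45 moved with single libraries. It was 15 to 27 without any of BM LSK 1, CNS LSK 1, CNS LSK 3, BM LK 1, BM LK 2, BM LK 4, CNS LK 1, CNS LK 2 and CNS LK 3, and 105 to 138 without CNS LK 4, BM LSK 3 or CNS LSK 2. In each of these fits 0 of the 8 passed.

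Whether a niche difference itself differed between LSK and LK was tested by an interaction term. By edgeR 0 genes passed (0%), 281 having an unadjusted p under 0.05 without the block and 589 with it, and 0 of the 8 passed in either fit. By DESeq2 0 genes passed as well. The non-overlap of Hes1 in LK and its overlap in LSK are therefore not shown to differ.

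Across the 16 libraries the receptors varied together. Pearson's r of log2(CPM + 0.5) was 0.88 between Notch1 and Notch3, 0.61 between Notch1 and Notch2 and 0.60 between Notch2 and Notch3. Dtx1 went with Notch1 (0.75) more closely than with Notch3 (0.58). Hes1 went with none of the others, with r from −0.24 to 0.11. Nrarp and Il2ra ran opposite to each other (−0.62), and Ptcra stood at 0.46 with Notch1 and 0.47 with Notch3. These values describe 16 libraries that share stems and groups and differ in depth, and they carry no test. They were not set beside the values of all gene pairs, and Ap2a1 stood closer to Notch1 (0.92) than Notch3 did.

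**Figure D5:**
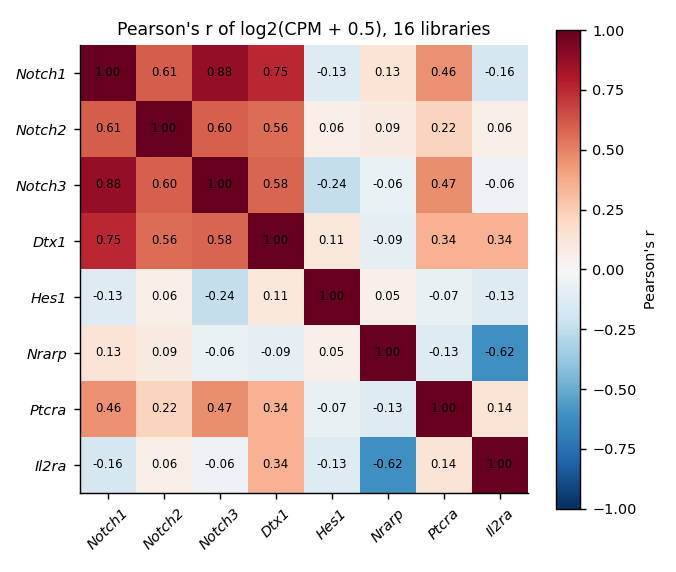
Pearson's r of log2(CPM + 0.5) between the 8 genes over the 16 libraries, from −1 (blue) to 1 (red). Notch1, Notch2, Notch3 and Dtx1 form a block of positive values (0.56 to 0.88), while the Hes1 row stays between −0.24 and 0.11.

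Among 11639 genes with a symbol and a mean of at least 50 counts, the pattern most like Notch1 was that of Ap2a1 (r = 0.92), then Dag1 (0.90) and Epg5 (0.90). Notch3 was most like Notch1 (0.88), Dag1 (0.87) and Gm41414 (0.86). Dag1, which encodes dystroglycan, was thus on both lists. For Notch2 the closest were Kat2b (0.82), Ap2b1 (0.81) and Camk2a (0.78). For Dtx1 they were Sbf1 (0.91), Nbeal2 (0.89) and Gm2792 (0.88), and for Ptcra Gon4l (0.89), Depdc5 (0.86) and Ints3 (0.85). Among the genes most like the niche pair, Hes1 had Gpc1 (0.83), Mex3a (0.73) and Gm6565 (0.73), and Il2ra had Stxbp2 (0.93), Prps2 (0.92) and B4galnt1 (0.91). Nrarp went with Caml (0.83), Gm20633 (0.83) and Gm20632 (0.83).

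The wider pathway was read from 79 other genes, of which 67 were tested. In the edgeR fits on genes averaging 10 counts or more, no gene of it passed between niches without the block, between LPC types or in the interaction. Ligands were scarce, with 2 of 7 tested, Jag2 at 6.17 CPM and Dll3 at 1.41 CPM, while Dll1 averaged 0.41 CPM. Background scaled by length would make up 3.11% to 14.2% of the Jag2 counts and 6.76% to 23.8% of the Dll3 counts. For Dll1 it would be 41.3% to 191%, so its level is not told apart from background. Notch4, the remaining receptor, averaged 2.10 CPM against 1404 CPM for Notch1, though per length the gap is the one to read (0.26 against 98.6 CPM per kb).

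The parts that process and relay the signal were all measured. Of the glycosyltransferases that modify the receptors, Pofut1 (22.9 CPM), Mfng (16.3 CPM) and Poglut1 (12.1 CPM) were highest in CPM. Of the proteases that cut them, Adam10 had 72.0 CPM and Adam17 had 32.5 CPM. In the nuclear complex Ep300 (134 CPM), Maml3 (72.7 CPM) and Kat2a (57.5 CPM) were highest. Of the corepressors, Ncor1 had 471 CPM and Spen 258 CPM. The highest trafficking and turnover genes were Nedd4 (422 CPM), Cbl (339.8 CPM) and Mib1 (100.3 CPM). Of the 51 tested genes of this machinery, ligands and Notch4 included, 0 passed between niches with the block (median log2 difference −0.03). Over all genes tested 0.667% passed, so a count of 0 among 51 is near that share.

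Other reported Notch targets did include genes that passed. Of 20 listed, 16 were tested, and with the stem block 3 were higher in CNS and 1 was lower (percentages of all genes as above). Lef1, a T-cell factor, averaged 158 ± 18.6 CPM in BM LSK, 199 ± 21.1 CPM in CNS LSK, 158 ± 41.4 CPM in BM LK and 199 ± 37.7 CPM in CNS LK, a log2 difference of 0.34 (SE 0.041, adjusted p = 0.000234). Trib2, a pseudokinase, rose from 8.41 ± 2.79 to 12.7 ± 3.53 CPM in LSK and from 12.3 ± 5.72 to 18.9 ± 8.13 CPM in LK, a log2 difference of 0.61 (SE 0.094, adjusted p = 0.00291). Gata3, a factor that T-cell specification needs, rose from 34.4 ± 3.27 to 43.1 ± 1.99 CPM in LSK and from 35.6 ± 4.27 to 40.02 ± 3.09 CPM in LK (0.25, SE 0.044, adjusted p = 0.00771). Tspan2, a tetraspanin, fell from 50.9 ± 5.83 to 36.2 ± 5.59 CPM in LSK and from 46.4 ± 5.68 to 37.8 ± 4.24 CPM in LK (−0.40, SE 0.045, adjusted p = 0.000168). Each of the 4 moved one way in 8 of 8 stems, as 1.49% of genes tested did upward and 1.45% downward. Each still passed in edgeR when any single stem was left out. The adjusted p ran up to 0.00225 for Lef1, 0.0166 for Trib2, 0.0396 for Gata3 and 0.00152 for Tspan2. The list was chosen with earlier results of these data known, and the 4 were picked for these refits after seeing the data. Their values therefore describe these libraries and support nothing on their own. With the background index beside the block, Gata3 no longer passed (adjusted p = 0.455) and the other 3 did. Without a block none of the 4 passed in the edgeR fit on genes averaging 10 counts or more, while Tspan2 passed by DESeq2 (adjusted p = 0.0128) and in edgeR with no filter (adjusted p = 0.000294). Tcf7 (577 CPM), the highest of this list, stood at −0.02 (adjusted p = 0.867), and Myc (163 CPM) at −0.08 (adjusted p = 0.477).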

How the data were processed

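Per the labels, RNA came from a Zymo microprep kit and went into SMARTer stranded total-RNA libraries. The submitters' processing notes name GRCm39 and DESeq2; aligner, counter and use of strand are not given in the sources used here. The deposited values are named as normalised, yet they are whole numbers with differing totals. They were used as deposited and taken as raw counts, which the sources used here do not settle. All 16 columns matched a sample by label, and 0 were left unused. Depth was 19.2 to 29.2 M counts. Symbols matched 52081 of 55414 identifiers, and the 3333 without one held 41.8% of counts.

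Identifiers averaging 10 counts or more were tested in edgeR 4.0.16 (R 4.3.3): TMM scaling, 4 group means, quasi-likelihood test, two-sided, Benjamini-Hochberg adjustment over all, threshold 0.05. Levels are CPM on TMM-scaled library sizes. Per-length levels used GENCODE exon lengths on GRCm38. The fit was tested on simulated data, but libraries were drawn there without a stem effect, so that test does not bear on the pairing.

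Stems were taken to pair libraries because BM and CNS deviations from group means correlated above 0.1 in 8 of 8 stems (0.11 to 0.34, offset 0.5). At an offset of 0.1 that held in 6 of 8. Title numbers paired LSK with LK in 4 of 8. Blocked fits and DESeq2 1.42.0 were alternatives.

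Members and lists were chosen with earlier results of these data known. Named are the 8 genes, list genes past the threshold, the 3 highest per list (some genes are not reported here) and the 3 most like each member. Marker genes were named to check the label.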

Additional observations from a re-analysis of the deposited data

Results flagged for a closer look

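In 4 of 32 gene-by-group sets of 4 libraries, 1 library stood far from the other 3, where chance gives about 1.6 (1 in 20). Notch2 was high in CNS LSK 3, at 68.0 CPM against 58.0 to 59.1 CPM in the others of its group, and in CNS LK 1, at 71.6 CPM against 55.3 to 57.4 CPM. Notch3 was low in CNS LSK 4, at 48.4 CPM against 72.4 to 75.3 CPM, the largest drop of Notch3 within a stem (−0.59 on the log2 scale). Ptcra was high in CNS LSK 1, at 91.4 CPM against 82.9 to 84.3 CPM. All 4 sets were CNS groups. No cause was tested.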

How the results depend on the processing

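Against 0 genes called between niches without a block, DESeq2 called 40, the fit with no filter on low counts 85, the replicate block on the stem 126 and that block with the background covariate 19. Under the block, leaving out LSK 1 to LSK 4 in turn gave 90, 94, 79 and 140, and leaving out LK 1 to LK 4 gave 78, 147, 78 and 101. Alternatives chosen after seeing the data, all with the block, gave 128 (median-of-ratios size factors), 135 (mean of at least 50 counts) and 131 (identifiers with a symbol). Of the 8 genes, 0 were called without the block, 2 with it, 0 to 1 without a stem, and 2, 1 and 2 in the added fits, where Il2ra was lost at a mean of at least 50 counts (adjusted p = 0.0599). Against 45 genes between LPC types, DESeq2 called 222, no filter 290, the background covariate 6, the title-number block 162 and summed stems 0. Leaving out 1 library gave 15 to 138. None of the 8 was called between LPC types, or in the interaction, under any alternative run; for the interaction, log2 changes of single genes were not recomputed. The causes were not tested.

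Of 472 recomputed log2 changes of the 8 genes, 435 kept direction and side of the threshold, 11 gained a call and 26 turned sign, the last with adjusted p of at least 0.807 and a size of at most 0.0769. Between LPC types these were Notch2 (−0.0492) and Hes1 (−0.0507) without a filter and Hes1 (−0.0134) with the number block. Leaving out 1 library gave −0.0769 to 0.0605 for Hes1 and −0.0195 to 0.0531 for Notch2. Between niches they were Ptcra at a mean of at least 50 counts (0.000804), Ptcra (0.0301) and Dtx1 (0.0276) with the covariate, and Ptcra (0.0123) and Dtx1 (0.0038) with the block and covariate. Leaving out 1 library gave −0.0763 to 0.0317 for Ptcra, and leaving out 1 stem under the block gave −0.0671 to 0.0029 for Ptcra and −0.0019 to 0.159 for Nrarp. Depth limits Nrarp, at 41 to 86 counts in a library, most.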
